A study of Mus musculus with 2 samples.

Results

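The genes described here are 8 markers of resident macrophages, taken by name from the array's gene list: C1qa, C1qb, C1qc, Cd68, Csf1r, Tyrobp, Aif1 and Ptprc. Each had 1 row among 31784 gene rows on 2 two-colour Agilent microarrays of mouse pituitary RNA. The RNA came from Brdt-/- mice and wild-type mice, both 8 weeks old and on a C57BL/6 background. The knockout mice carry the Brdt tm1a (EUCOMM) Wtsi allele, in which a lacZ trapping cassette and a neo cassette in the fourth intron disrupt the gene, and wild-type mice are the comparison. The labels give the wild-type mice as male and give no sex for the knockout mice. Each genotype had 2 pools of 3 mice, which the labels call biological replicates, and each array set 1 knockout pool against 1 wild-type pool. The knockout pool carried Cy5 on array 1 and Cy3 on array 2.

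Resident macrophages settle in tissues and clear debris, and in the pituitary they lie among the hormone cells and along the vessels. Complement C1q is a secreted recognition protein whose A, B and C chains pair a collagen-like stalk with globular heads. It binds immune complexes and dying cells, and with the proteases C1r and C1s it starts the classical complement pathway. Macrophages and microglia are a main source of C1q, and their survival depends on signals through the receptor encoded by Csf1r.

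The C1q genes are neighbours on chromosome 4, in the order C1qb, C1qc, C1qa in the RefSeq annotation. PU.1, a transcription factor on which macrophages depend, binds purine-rich sites with the core GAGGAA. The RefSeq promoter table (build GRCm38.p6, 250 bases before to 50 after each start) held an entry for 5 of the 8 genes, and for Ptprc the first of its starts was taken. All 5 of these stretches held GAGGAA on at least 1 strand, as did 28.3% of the 32851 promoters in the table. The longer word GAGGAAGT, which overlaps the core by construction, occurred in 1 of the 5, that of C1qc, and in 3.20% of all promoters. Both strands were searched, and a match is a run of letters rather than a measured binding site. The promoters of C1qb and C1qc are printed because these neighbours had opposite signs on each array, and those of Aif1 and Ptprc because their ratios were above 0 on both. They lie on the minus strand at chr4:136886151-136886450, chr4:136892865-136893164, chr17:35176003-35176302 and chr1:138175256-138175555. They are written 5′ to 3′ in the direction of the gene, and capitals mark GAGGAA or its reverse complement TTCCTC.
C1qb: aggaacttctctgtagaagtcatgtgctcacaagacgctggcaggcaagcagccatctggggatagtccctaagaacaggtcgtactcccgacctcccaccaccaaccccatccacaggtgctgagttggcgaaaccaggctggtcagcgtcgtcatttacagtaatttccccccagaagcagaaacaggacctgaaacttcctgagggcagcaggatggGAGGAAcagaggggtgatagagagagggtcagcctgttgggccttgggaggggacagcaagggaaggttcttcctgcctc
C1qc: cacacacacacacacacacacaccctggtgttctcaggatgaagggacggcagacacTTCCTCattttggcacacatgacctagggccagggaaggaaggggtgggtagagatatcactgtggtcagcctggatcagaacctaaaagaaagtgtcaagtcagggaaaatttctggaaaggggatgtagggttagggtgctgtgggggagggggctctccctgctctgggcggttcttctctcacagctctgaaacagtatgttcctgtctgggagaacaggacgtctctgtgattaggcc
Aif1: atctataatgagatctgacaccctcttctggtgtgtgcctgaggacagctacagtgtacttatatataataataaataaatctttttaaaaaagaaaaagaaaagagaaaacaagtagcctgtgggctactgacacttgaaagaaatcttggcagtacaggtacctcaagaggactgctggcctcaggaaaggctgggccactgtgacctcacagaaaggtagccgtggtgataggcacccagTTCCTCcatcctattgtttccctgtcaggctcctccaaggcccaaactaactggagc
Ptprc: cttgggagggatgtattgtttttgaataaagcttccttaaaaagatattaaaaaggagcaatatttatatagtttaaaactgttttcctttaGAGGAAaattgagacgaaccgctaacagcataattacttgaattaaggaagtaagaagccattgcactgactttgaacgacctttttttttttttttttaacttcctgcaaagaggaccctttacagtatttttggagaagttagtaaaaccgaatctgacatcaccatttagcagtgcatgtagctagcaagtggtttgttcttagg
In C1qb the match began 30 bases before the start, and in C1qc, 193 bases before it. In Aif1 it began 7 bases before the start and in Ptprc, 158 bases before it. The promoter of Cd68, not printed, held 2 matches.

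The deposited values are signed fold changes between the channels of an array, with no intensities, so they give ratios and not levels. Whether a gene was well above background, and whether these 8 genes mark macrophages in this RNA, could not be checked from ratios. No label states which channel stands over which. The 10 rows for Agilent's E1A spike-ins each kept 1 sign across the columns, so both were taken to run in the same dye order. The sign of array 2 was therefore turned. Only the agreement of the spike-in signs between the columns was used, and this does not show which dye stands over the other. Cy5 over Cy3 was assumed, and with Cy3 over Cy5 every turned ratio would change sign. Ratios below are log2 values of knockout over wild type under that assumption, array 1 before array 2. This direction is not settled. The turn assumes that each spike-in mixture was tied to a dye, and the values without the turn are given further on. Across all gene rows the turned arrays had a Pearson's r of -0.26, given as a description of genes that share pools and dyes.

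Of the 8 genes, 4 had a ratio above 0 on both arrays (C1qa, Tyrobp, Aif1 and Ptprc), 1 was below 0 on both (Csf1r) and 3 had opposite signs (C1qb, C1qc and Cd68). Among all gene rows 21.6% were above 0 on both arrays and 19.5% below. Counted array by array, 5 of the 8 were above 0 on array 1 (44.9% of all gene rows) and 6 on array 2 (57.1%). The Aif1 ratio of array 2 turned negative when each array was centred on its median, which left 3 genes above 0 on both. The median over the 8 genes was 0.24 on array 1 and 0.19 on array 2, against -0.030 and 0.034 over all gene rows. None of the 8 passed limma's test (0 of 8, adjusted p = 0.999995 for each), and none of all gene rows did (0.00%). At limma's unadjusted p under 0.05 the count was 0 of the 8, against 703 of all gene rows (2.21%). With 2 arrays, the smallest two-sided p of an exact sign-flip permutation is 0.5. In RNA of whole tissue, more cells of a type and more RNA per cell cannot be told apart.

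**Figure D1:**
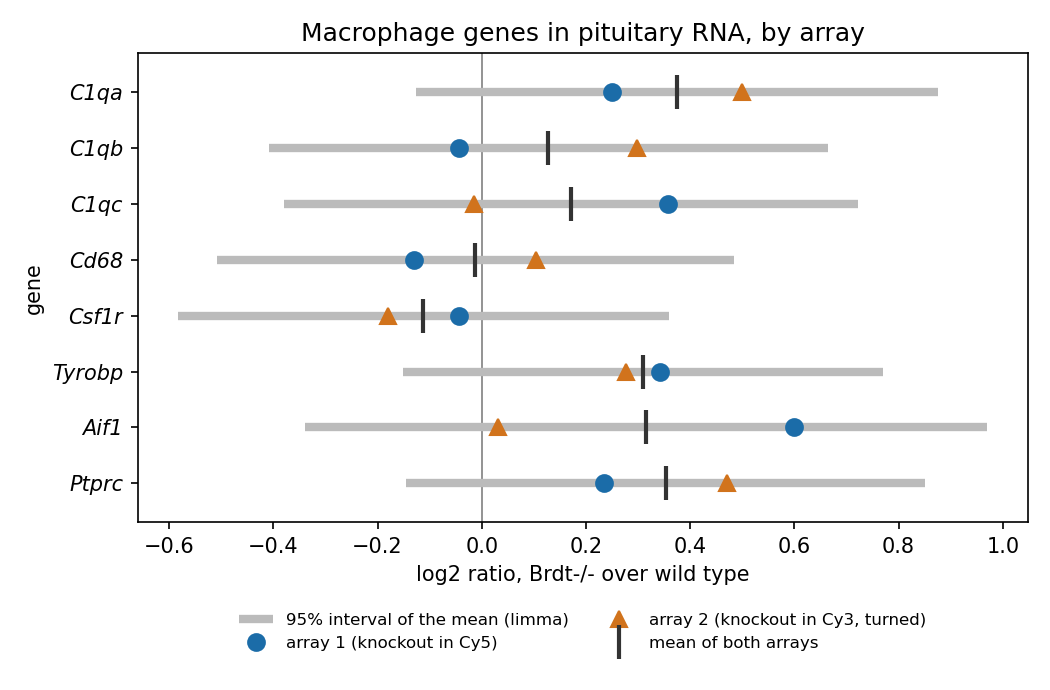
Log2 ratio of Brdt-/- over wild type for the 8 genes (rows), with array 1 as circles, array 2 (turned) as triangles, the mean as a bar and its 95% limma interval in grey. Every interval covers 0, and with array 2 turned C1qa has the highest mean at 0.37, Csf1r the lowest at -0.11, and Aif1 the widest gap between arrays; its array 2 value of 0.031 falls below 0 with median centring.

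C1qa encodes the A chain of C1q. Its deposited folds were 1.19 on array 1 and -1.41 on array 2, which give log2 ratios of 0.25 and 0.50. With array 2 turned, both arrays placed the knockout pool above the wild-type pool. The mean was 0.37 ± 0.18 (SD, n = 2), or 1.30-fold, and limma's 95% interval ran from -0.13 to 0.88. With array 2 turned it was the highest mean of the 8 genes, and 94.7% of all gene rows had a lower one. Without the turn the share was 29.3%, and Aif1 had the highest mean.

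C1qb encodes the B chain, which joins the A chain in the assembled protein. Its deposited folds were -1.03 and -1.23, or log2 ratios of -0.043 and 0.30. The ratio was close to 0 on array 1 and positive on array 2, with a mean of 0.13 ± 0.24 (SD, n = 2). C1qc encodes the C chain, and its deposited folds of 1.28 and 1.01 gave 0.36 and -0.016. With array 2 turned, its positive value lay on the other array than that of C1qb, with a mean of 0.17 ± 0.26 (SD, n = 2). Limma's 95% intervals were -0.41 to 0.66 for C1qb and -0.38 to 0.72 for C1qc.

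The chains form one protein, yet with array 2 turned their ratios did not run in parallel over the arrays. C1qa exceeded C1qb by a log2 difference of 0.29 on array 1 and 0.20 on array 2. C1qa was 0.11 under C1qc on array 1 (difference -0.11) and 0.52 above it on array 2. C1qb minus C1qc was -0.40 on array 1 and 0.31 on array 2. These gaps between subunit genes of the same pools were of the same order as the ratios themselves. Without the turn, the differences of array 2 change sign. As deposited, C1qa was at 0.25 and -0.50, C1qb at -0.043 and -0.30 and C1qc at 0.36 and 0.016. In that reading every chain was lower on array 2 than on array 1, and C1qc was the highest on both. The sources used here do not say how probes were combined into 1 value per gene.

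Csf1r encodes the receptor for the cytokines CSF1 and IL-34 and sits on macrophages and their precursors. Its deposited folds were -1.03 and 1.13, or log2 ratios of -0.043 and -0.18. It was the only one of the 8 genes below 0 on both turned arrays. The mean was -0.11 ± 0.097 (SD, n = 2), with a 95% interval of -0.58 to 0.36. A lower mean was found for 24.6% of all gene rows, and for 67.0% with array 2 not turned.

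Tyrobp encodes DAP12, an adaptor with an activation motif that passes on signals from receptors such as TREM2. It had deposited folds of 1.27 and -1.21, or log2 ratios of 0.34 and 0.28. With array 2 turned it had the smallest gap between arrays of the 8 genes, 0.066 on the log2 scale, where the median gap over the 8 was 0.24 and over all gene rows 0.28. Without the turn its gap was 0.62, and Cd68 had the smallest at 0.025. The mean was 0.31 ± 0.047 (SD, n = 2), or 1.24-fold, with a 95% interval of -0.15 to 0.77. Limma's standard error of 0.15 borrows the spread of all genes and is therefore wider than the gap of this gene alone.

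Ptprc encodes CD45, a tyrosine phosphatase on the surface of all leukocytes and so not specific to macrophages. Its deposited folds were 1.18 and -1.39, giving log2 ratios of 0.23 and 0.47. Both values lay close to those of C1qa, which exceeded Ptprc by 0.016 on array 1 and 0.028 on array 2. The mean was 0.35 ± 0.17 (SD, n = 2), or 1.28-fold, with a 95% interval of -0.14 to 0.85.

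Aif1 encodes IBA1, a calcium-binding protein of the actin cytoskeleton and a common stain for macrophages and microglia. Its deposited folds were 1.51 and -1.02, or log2 ratios of 0.60 and 0.031. Array 1 held nearly all of the difference, and with array 2 turned the gap of 0.57 between arrays was the widest of the 8 genes. Without the turn it was 0.63, and the gaps of C1qa (0.75) and Ptprc (0.71) were wider. The mean of 0.31 ± 0.40 (SD, n = 2) had a 95% interval of -0.34 to 0.97. Aif1 was the 1 gene of the 8 past 1.5-fold on array 1, where 13.8% of all gene rows were. None of the 8 passed that size on array 2 (9.19% of all gene rows), or in one direction on both (0.359% higher and 0.453% lower).

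Cd68 encodes a glycoprotein of the lysosome membrane in phagocytes. Its deposited folds of -1.09 and -1.07 gave log2 ratios of -0.13 and 0.10. The values lay on either side of 0, and with array 2 turned the mean of -0.013 ± 0.17 (SD, n = 2) was the one nearest to 0 among the 8 genes. Without the turn it was -0.12, and Tyrobp (0.033) and Csf1r (0.069) were nearer to 0. Limma's 95% interval of -0.51 to 0.48 covers a difference of either sign.

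**Figure D2:**
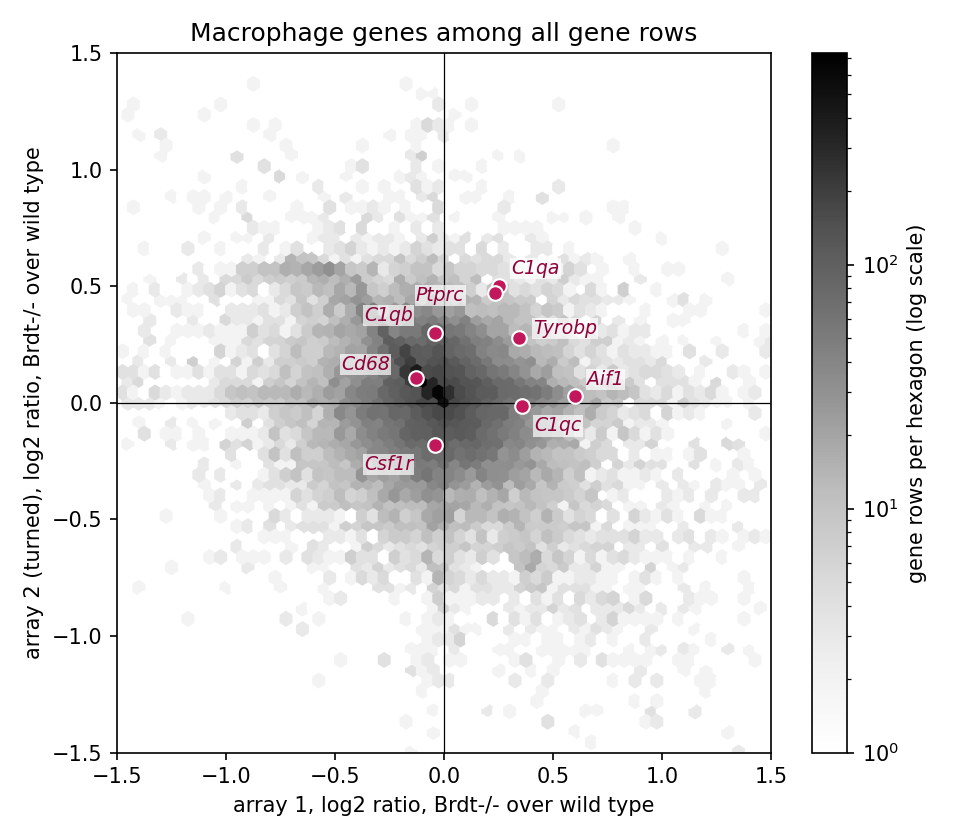
Log2 ratio of Brdt-/- over wild type on array 1 (horizontal) against array 2 (vertical, turned) for 31003 gene rows within 1.5 of 0 on both axes, in hexagons shaded by a log count, with the 8 genes in red; 781 rows lie outside. C1qa, Ptprc and Tyrobp sit in the upper right, Csf1r in the lower left, and Aif1 and C1qc lie along the horizontal axis, Aif1 at 0.031 on array 2 before median centring and below 0 after it.

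Among themselves the 8 genes spread with an SD of 0.25 on array 1 and 0.24 on array 2, against 0.48 and 0.37 over all gene rows. Of the 28 pairs of these genes, 14 kept the same order on both arrays with array 2 turned. The remaining 14 did so with it not turned, because the turn reverses every order on array 2. No pair kept its order in both readings. With the turn, C1qa, Tyrobp, Aif1 and Ptprc each lay above Csf1r on both arrays. As deposited, array 2 had Csf1r at 0.18, above C1qa (-0.50), Ptprc (-0.47), Tyrobp (-0.28) and Aif1 (-0.031). The differences that follow are with the turn, and those of array 2 change sign without it. Csf1r minus Tyrobp was -0.39 on array 1 and -0.46 on array 2. Cd68 lay below Ptprc by nearly the same amount on both arrays, with differences of -0.36 and -0.37. C1qc minus Csf1r was 0.40 and 0.17, and C1qc minus Aif1 was -0.24 and -0.046. The means of C1qa, Ptprc, Aif1 and Tyrobp ran from 0.31 to 0.37 and differed by less than the SD of each of these genes over the arrays, except that of Tyrobp, 0.047.

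The signs of 4 genes depended on how array 2 was read. With array 2 not turned, the mean was -0.13 for C1qa, -0.17 for C1qb, -0.12 for Ptprc and 0.069 for Csf1r, each opposite to the mean with the turn. Aif1 (0.28), C1qc (0.19), Tyrobp (0.033) and Cd68 (-0.12) kept their sign. In that reading 1 gene, C1qc, was above 0 on both arrays and 2, C1qb and Cd68, were below, where 23.3% of all gene rows were above and 35.4% below. If both columns run in the same dye order, the mean without the turn holds any part that follows the dye. It also holds differences between the pool pairs of the arrays, and these cannot be told apart here. For 5 of the 8 genes the mean with the turn was larger in size than the mean without it, as it was for 41.2% of all gene rows. That happens when both turned ratios have the same sign, so it restates the counts above and below 0 on both arrays. For Tyrobp the means were 0.31 and 0.033, and for Aif1 0.31 and 0.28.

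**Figure D3:**
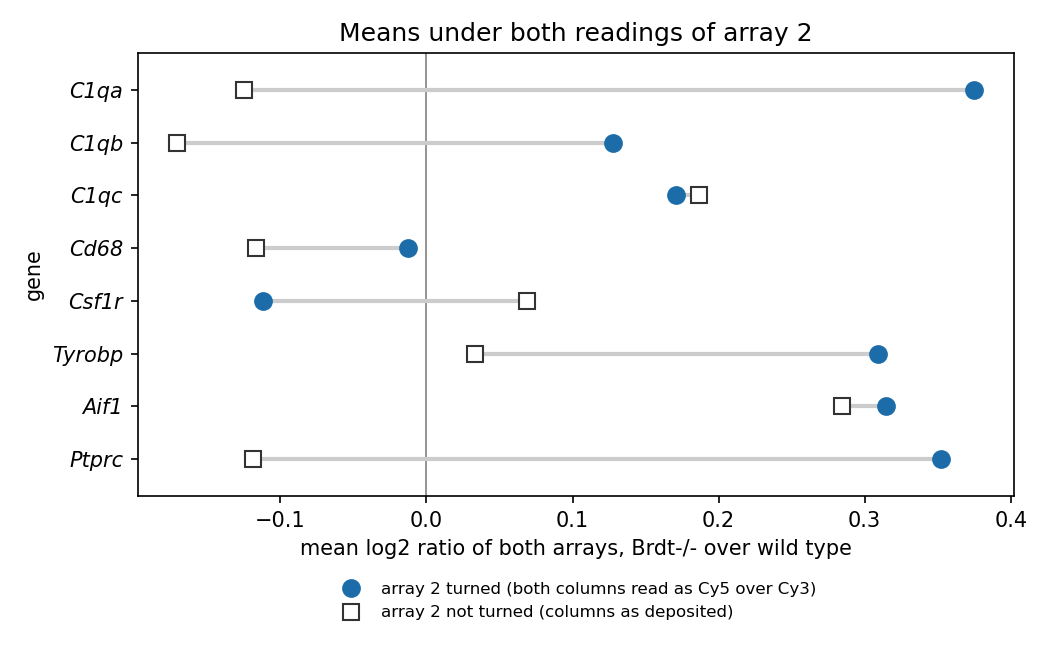
Mean log2 ratio of Brdt-/- over wild type over both arrays for the 8 genes, with array 2 turned (filled circles) and not turned (open squares). The sign differs between both readings for C1qa, C1qb, Csf1r and Ptprc, while Tyrobp stands at 0.31 with the turn and 0.033 without it, and Aif1 at 0.31 and 0.28.

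Genes of the classical pathway, which act with C1q, lay above 0 mainly on array 1. Of 8 measured genes of the C1 proteases and the classical pathway, 4 were above 0 on both arrays and 1 below, with medians of 0.47 on array 1 and -0.0030 on array 2. C4b, which C1s cleaves, was at 0.82 and 0.019, and the central component C3 at 0.80 and -0.025. C1s was at 0.49 and 0.25. Of 16 complement receptors and regulators, 6 were above 0 on both and 2 below, with medians of 0.14 and 0.0031, and the C5a receptor gene C5ar1 was at 1.41 and 0.65. Lectin, alternative and terminal pathway genes numbered 19, of which 2 were above and 1, the lectin gene Mbl2 at -1.13 and -2.44, below on both arrays. Their medians were -0.089 and 0.084, and with array 2 not turned 5 were above 0 on both and 11 below. Of 16 relatives that share the C1q domain but are best known from other cells, 6 were above 0 on both and 2 below, with medians of 0.034 and 0.15. Without the turn, the counts above and below 0 on both arrays were 3 and 0 for the classical pathway, 6 and 2 for the receptors and regulators, and 3 and 5 for the relatives. None of the genes in these lists passed limma's adjusted threshold, and the same holds for the lists that follow.

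Around Csf1r, 3 of 10 ligand and myeloid transcription factor genes were above 0 on both arrays and 1, Maf (-0.19 and -0.33), below, with medians of 0.36 and -0.0070. The ligand gene Csf1 was at 0.33 and 0.17. Around Tyrobp, 6 of 13 partner receptor and signalling genes were above 0 on both and 1 below, with medians of 0.44 and 0.085. Trem3, a receptor of that family, was at 0.97 and 1.13, and Trem2 at 0.27 and -0.089. Around Ptprc, 3 of 11 CD45 substrates and partners were above 0 on both and 1 below, with medians of 0.071 and 0.094. The Src-family kinase gene Fgr was at 0.47 and 0.50, and its relative Src, the 1 below, at -0.26 and -0.34. Around Aif1, 3 of 8 leukocyte actin genes were above 0 on both and 0 below, with medians of 0.44 and -0.061. The actin-binding gene Coro1a was at 0.71 and 0.16. Around Cd68, 1 of 17 lysosome and LAMP family genes was above 0 on both, Lipa at 0.23 and 0.15, and 2 below, with medians of -0.035 and 0.11. In the other reading of array 2, the counts above and below 0 on both arrays were 4 and 2 around Csf1r, 5 and 1 around Tyrobp and 3 and 4 around Ptprc. They were 5 and 0 around Aif1 and 6 and 8 around Cd68.

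Of 25 other macrophage markers, 16 were above 0 on both arrays and 1 below, with medians of 0.52 and 0.066. Cd53, a leukocyte tetraspanin, was at 1.48 and 0.59, and the lysozyme gene Lyz2 at 0.78 and 0.46. Lyve1, a marker of vessel-associated macrophages and of lymphatic endothelium, was at 0.31 and -1.69. With array 2 not turned, 7 of the 25 were above 0 on both arrays and 1 below. Of 10 microglia genes 6 were above 0 on both and 0 below, with medians of 0.29 and 0.15, and the purine receptor gene P2ry12 was at 0.26 and 0.45. Without the turn, 3 microglia genes were above 0 on both and 1 below.

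With array 2 turned, neutrophil and monocyte markers had medians further above 0 on array 1 than on array 2. Those of B cell markers and of T and NK cell markers were below 0 on both. For T and NK cells the array 1 median of -0.016 lay near that of all gene rows (-0.030). Of 13 neutrophil genes 10 were above 0 on both arrays and 2 below, with medians of 2.77 on array 1 and 0.45 on array 2. They ranged from -0.27 to 5.54 on array 1 and from -0.45 to 1.32 on array 2. Of 6 monocyte genes 5 were above 0 on both and 1 below, with medians of 1.14 and 0.32, and F13a1, a transglutaminase of monocytes and platelets, was at 1.79 and 0.93. As deposited, 1 neutrophil gene was above 0 on both arrays and 0 below, and of the monocyte genes 0 were above and 0 below. The list median of the mean over arrays was then 1.15 for neutrophil and 0.40 for monocyte genes, against 1.53 and 0.70 with the turn. T and NK cell genes (13) had medians of -0.016 and -0.16, and B cell genes (8), -0.27 and -0.045. Red blood cell genes (7) had medians of 0.12 and 1.15, with 4 above 0 on both and 0 below, and without the turn 0 above and 3 below. With array 2 turned, C1qc, Csf1r, Tyrobp and Aif1 were higher on array 1 than on array 2, as the neutrophil and monocyte medians were, and C1qa, C1qb, Cd68 and Ptprc were lower. As deposited, Csf1r and Cd68 were the genes lower on array 1, and the other macrophage genes were higher there. The part of blood cells in the ratios of the 8 genes was not tested.

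**Figure D4:**
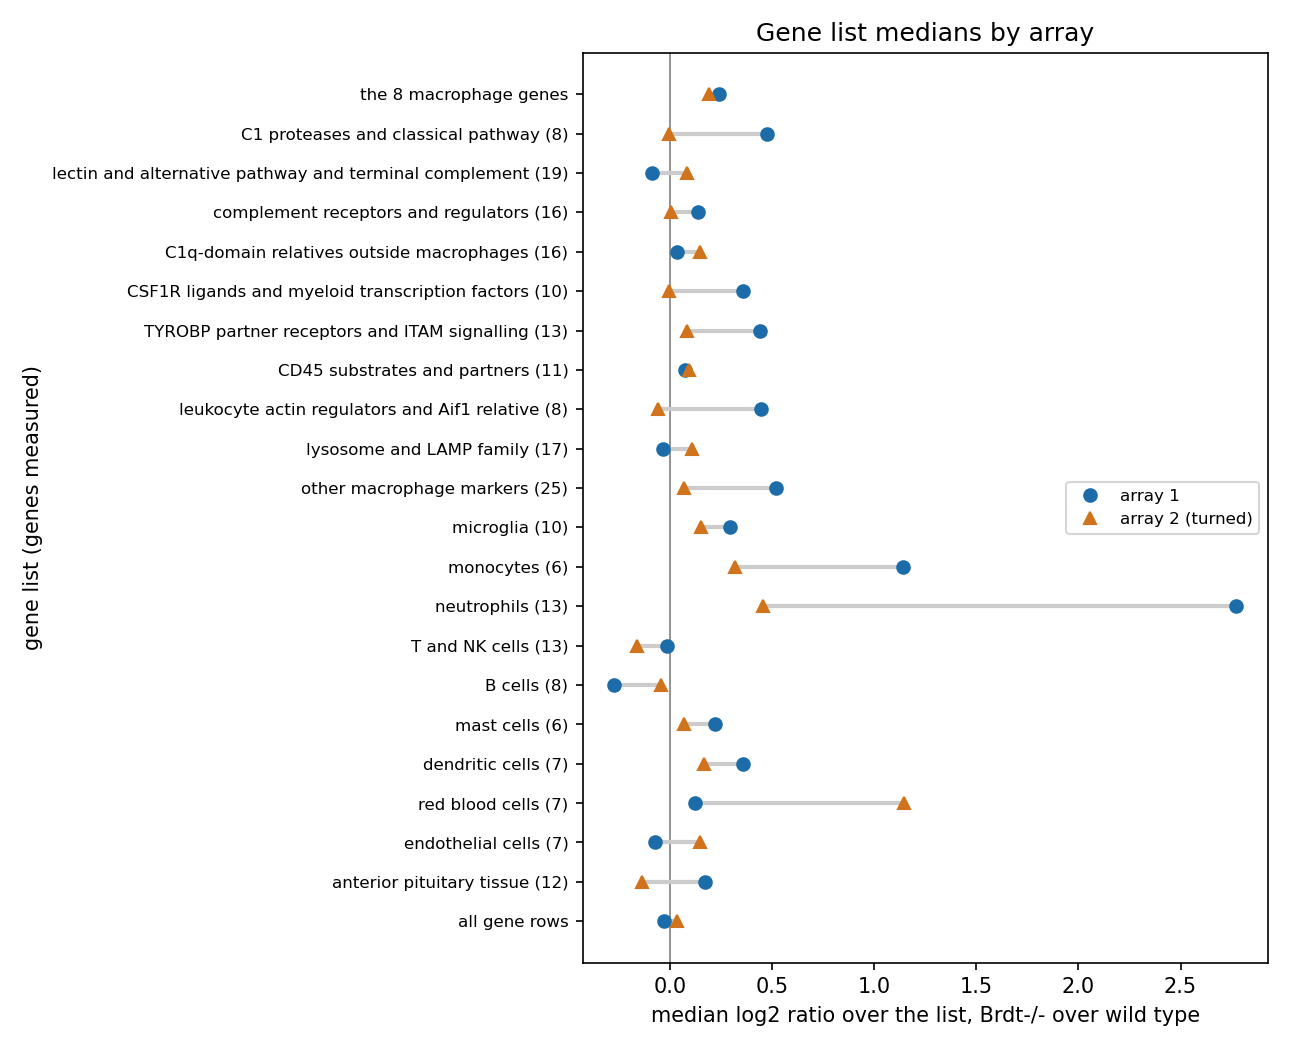
Median log2 ratio of Brdt-/- over wild type for each gene list (rows, genes measured in brackets), with array 1 as circles and array 2 (turned) as triangles. The 8 macrophage genes had medians of 0.24 and 0.19. Their median was higher on array 1, as were those of other macrophage markers (0.52 and 0.066), monocyte (1.14 and 0.32) and neutrophil genes (2.77 and 0.45). Among other lists some did the same, such as anterior pituitary genes (0.17 and -0.14), and some the reverse, such as red blood cell genes (0.12 and 1.15).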

How the data were processed

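The file deposited by the authors holds signed linear fold changes, 1 row per gene name and 1 column per array, for 31840 rows. The unit was read from the values, each of which is at least 1 in size. Per the labels' protocols, RNA was labelled with Agilent's Low Input Quick Amp kit for 2 colours. Background correction, normalization and the handling of probes are not stated by the sources used here, and precision is limited by having 2 arrays. Folds were converted to log2 of their size with the sign kept, and 56 control rows were left out. Older symbols were matched through RefSeq (GRCm38.p6).

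Array 2 was turned because all spike-in rows had the same sign in both columns, and Cy5 over Cy3 was assumed for both. An intercept was fitted to all gene rows in limma (version 3.58.1, R version 4.3.3) by lmFit with eBayes moderation, which leaves 1 residual degree of freedom. P-values were adjusted by Benjamini-Hochberg over all rows and called under 0.05. The fit was tested on simulated data, in which the values of each array were dealt separately to random genes. In these data 50 genes were shifted upward by each of several log2 sizes, equally on both arrays. The fit called 0 of 50 at a shift of 1, 1 of 50 at 2 and 37 of 50 at 3. Dealing the values out removes the correlation between the real arrays, so these rates hold for the simulated setting. A dye term would leave no residual degrees of freedom.

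The 8 genes and the 20 gene lists were chosen with earlier results of these data known. Named genes are the 8, Trem2 and, from each list, examples among the 4 with the largest mean in size, not all of which are reported here. Lists are described by counts and medians, without a test. Alternatives were the orientation, centring, scaling, single arrays, the fold threshold and leaving out genes.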

Additional observations from a re-analysis of the deposited data

Results flagged for a closer look

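The E1A spike-in rows are control features outside the comparison of genotypes. Their mean size was 1.58 on the log2 scale over both arrays, against 0.0675 for the negative control row, and each of the 10 kept its sign across the deposited columns. The turn of array 2, and with it the sign of C1qa, C1qb, Csf1r and Ptprc relative to the other reading, rests on these rows. The signs of all 8 genes also rest on the assumed order of Cy5 over Cy3, which the agreement of these rows between columns does not show.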

How the results depend on the processing

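Centring each array on its median and scaling both arrays to a common spread kept the sign of the mean and the limma call for all 8 genes. With array 2 not turned, 4 genes reversed, C1qa to -0.13, C1qb to -0.17, Csf1r to 0.069 and Ptprc to -0.12, and the median over the 8 genes reversed to -0.042. Genes above 0 on both arrays then numbered 1 in place of 4, and those below, 2 in place of 1. Limma's adjusted p for the 8 genes lay between 0.611 and 1 over these settings. These reversals follow from the turned sign itself. Leaving out each array in turn gave ranges of -0.043 to 0.30 for C1qb, -0.016 to 0.36 for C1qc and -0.13 to 0.10 for Cd68, where the sign differed between arrays. The median ranged from 0.19 to 0.24, the genes above 0 from 5 to 6 and those below from 2 to 3 on single arrays, where no second array has to agree. Leaving out C1qa, Tyrobp, Aif1 or Ptprc gave a median of 0.17, as did the 3 C1q genes alone, and leaving out C1qb, C1qc, Cd68 or Csf1r gave 0.31. Over all gene rows, 258 passed 1.5-fold in one direction on both arrays. With array 2 not turned the count was 1008, at 1.2-fold 1696 and at 2-fold 36, and on single arrays it ran from 2921 to 4393. The count of 0 genes called by limma became 703 at an unadjusted p and 2 with the ordinary one-sample statistic, both with identical ratios on the arrays. No further pairing was possible because each ratio, to which limma was fitted, already pairs a knockout pool with a wild-type pool. No file used here gives signal over background, so a filter on dim probes was not possible.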

Other observations

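Lymphocyte markers are given here beside the other immune cell lists. Of 13 T and NK cell genes, 2 were above 0 on both arrays and 5 below, with medians of -0.016 and -0.16. The T cell receptor subunit gene Cd3e was at -0.76 and -0.46, while Cd3d, of the same receptor, was at 0.73 and 0.20. Of 8 B cell genes, 0 were above 0 on both and 3 below, with medians of -0.27 and -0.045, and Cd79a, of the B cell receptor, was at -0.46 and -0.30. Of 7 dendritic cell genes, 4 were above 0 on both and 0 below, with medians of 0.36 and 0.17, and Clec9a was at 0.48 on each array. Of 6 mast cell genes, 3 were above 0 on both and 2 below, with medians of 0.22 and 0.066. The mast cell protease gene Mcpt4 was at 1.09 and 0.58, and Ms4a2, among those below, at -0.0040 and -0.88. Without the turn of array 2, the counts above and below 0 on both arrays were 4 and 2 for T and NK cells, 1 and 4 for B cells, 0 and 3 for dendritic cells and 0 and 1 for mast cells.

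Endothelial genes (7) had medians of -0.073 and 0.15, with 2 above 0 and 2 below on both arrays. Of 12 anterior pituitary genes, 1 was above 0 on both arrays and 2 below, with medians of 0.17 and -0.14. Without the turn, 1 endothelial gene was above 0 on both and 2 below, and 8 anterior pituitary genes were above and 1 below. All of these genes had rows, and ratios cannot show whether they were abundant. None of the genes named here passed limma's adjusted threshold.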
